A study of Bos taurus with 54 samples.

Results

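The genes described here are 10 receptors through which neutrophils sense chemoattractants and growth factors, taken by their symbols from the counted genes of bovine blood. The set is made up of CXCR1, CXCR2, C5AR1, PTAFR, LTB4R, FPR1, CSF3R, CSF2RA, CSF2RB and TREM1. Of these, 9 had a row among the 32637 genes of the count files, and FPR1 was not analysed here.

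Neutrophils are short-lived phagocytes that leave the blood along gradients of chemoattractants. Receptors for chemokines, complement fragments and lipid mediators are G protein-coupled and direct migration and degranulation, while the receptors for colony-stimulating factors signal through JAK kinases and STAT factors and sustain neutrophil production and survival. TREM1 amplifies inflammatory signals through the adaptor TYROBP. Monocytes carry several of the same receptors, and eosinophils carry some of them.

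Blood was drawn from 15 Holstein male calves in climate-controlled rooms, in the morning before heat exposure (thermoneutral control) and in the evening directly after 12 h of heat exposure (heat stress). Red blood cells were lysed before RNA was extracted, and the RNA was prepared with 2 kits that read the 3′ end of transcripts. One was SMART-Seq v4 3′ DE from Takara, and the other was QuantSeq 3′ from Lexogen. Each kit gave 27 libraries, of which 13 control and 13 heat stress libraries were compared, with 12 calves sampled at both times in each kit. Groups follow the sample labels, which place 14 RNA samples before and 15 after heat exposure, while the collection notes give these numbers the other way round. The study's sample table numbers its calves without animal numbers. If they follow the animal numbers in order, it differs from the labels in which kit covers which time for animals 7, 15, 20, 23 and 29, and it matches them for every calf once its columns are exchanged. The direction of every change given here therefore rests on the labels. The libraries of animal 20, which has 1 time only, were left out, and those of the other 4 calves were kept as labelled. All calves were heated, and all control samples came from about 6 AM and all heat stress samples from about 6 PM, so that heat exposure and time of day cannot be told apart. The labels name no other treatment and give no age.

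Counts on genes ranged from 5140595 to 20699030 in Takara libraries and from 4516761 to 58521751 in Lexogen libraries, where the deepest library was that of animal 15 after heat stress. Levels are given as CPM, each gene's share of all counts on genes in a library, scaled to a fixed total. White blood cells were represented in the libraries. The summed level of 13 neutrophil markers had a median of 11015 CPM in Takara control libraries and that of 7 T cell markers a median of 1300.8 CPM. The hemoglobin gene HBA1 was at 0 in all 26 compared libraries of each kit. HBB ranged from 489 to 3288 CPM in Takara, so that the 0 of HBA1 does not mean that red cell RNA was absent.

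In Takara libraries, 7 of the 9 receptors rose with heat stress and 0 fell. Among all 12620 genes tested in this kit, 28.9% were called, 18.4% as higher and 10.5% as lower. The median log2 fold change of the 9 receptors was 1.56, beside -0.05 for all genes tested. Calls are those of edgeR's quasi-likelihood test with a Benjamini-Hochberg adjusted p under 0.05 over all genes of the kit. The largest rises were in C5AR1, PTAFR and TREM1, whose fitted levels were 6.42, 5.78 and 4.41 times those of the control, and 3.94, 3.84 and 3.68 times with the animal as a block. CSF3R and LTB4R were not called. With the Takara library of animal 20 counted as heat stress, as labelled, 7 of the 9 were called, beside 33.2% of all genes. With it counted as a control, edgeR called 0 of the 9 and 0% of all genes. Here 5 receptors had an unadjusted p under 0.05, beside 3804 of 12652 genes.

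**Figure D1:**
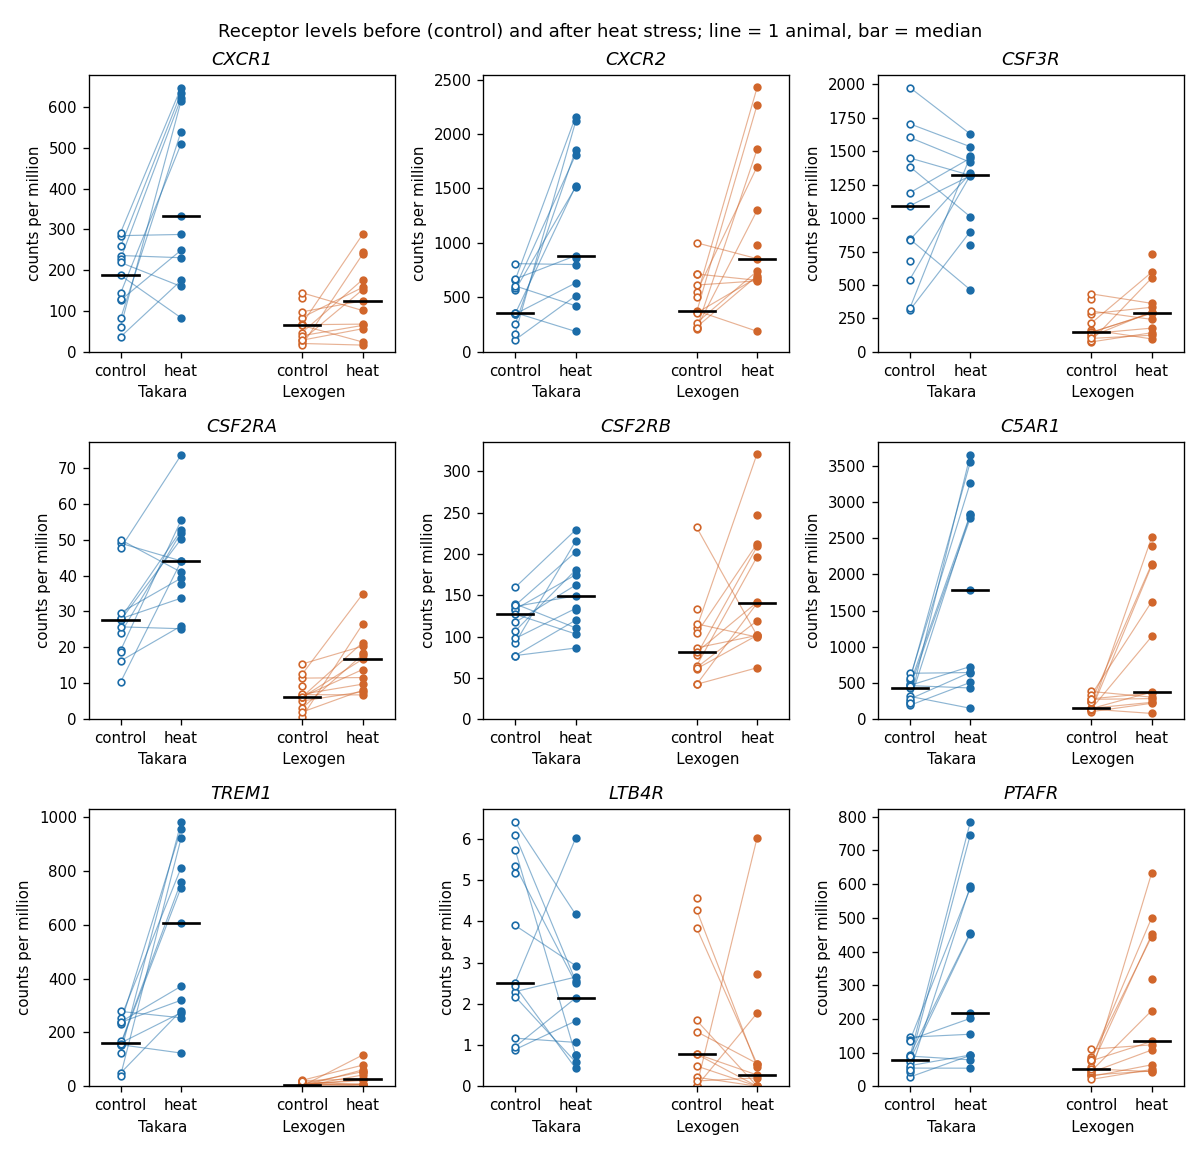
Levels of the 9 receptor genes in CPM (vertical axes, linear, each with its own range) in thermoneutral control (open points) and heat stress (filled points) libraries of Takara (blue) and Lexogen (orange). Each point is 1 library of 13 per group, thin lines join the libraries of 1 calf, and black bars are medians; for C5AR1 in Takara, 10 of 13 heat stress libraries lie above every control library, and the others lie within or below the control range.

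CXCR1 and CXCR2 are the receptors for CXCL8, the main chemokine that recruits neutrophils, and CXCR2 also binds related chemokines. They lie next to each other on chromosome 2 of ARS-UCD2.0, CXCR2 at 106184638 to 106194129 and CXCR1 at 106215131 to 106219158, and they are close paralogs, so that reads shared between them are uncertain. CXCR2 ranged from 111 to 810.2 CPM in Takara control libraries (median 359) and from 187 to 2161 CPM after heat stress (median 883). The groups overlapped, with 8 of 13 heat stress libraries above the highest control library. CXCR2 rose by a log2 fold change of 1.80 (SE 0.38, adjusted p = 0.00134, edgeR's quasi-likelihood test). For CXCR1 the control libraries lay between 36.8 and 292 CPM (median 187) and the heat stress libraries between 83.4 and 647 CPM (median 332). Here 7 of 13 heat stress libraries were above all controls, while the lowest heat stress libraries lay well inside the control range. CXCR1 rose by 1.56 on the log2 scale (SE 0.37, adjusted p = 0.00285, edgeR).

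C5AR1, on chromosome 18 at 54314025 to 54328987, encodes the receptor for the complement fragment C5a. Its level ran from 189.6 to 633 CPM in Takara control libraries (median 428) and from 149.4 to 3649.8 CPM after heat stress (median 1779). The control libraries were close together and the heat stress libraries were spread widely, with 10 of 13 above every control and 1 below every control. The log2 fold change was 2.68 (SE 0.45, adjusted p = 0.000371, edgeR).

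PTAFR, the receptor for the lipid platelet-activating factor, lies on chromosome 2 at 125201937 to 125229056. The Takara control libraries ranged from 27.4 to 146 CPM (median 77.2) and the heat stress libraries from 53.7 to 784 CPM (median 216). In heat stress 9 of 13 libraries were above the highest control, and 3 control libraries were below the lowest heat stress library. PTAFR rose by 2.53 on the log2 scale (SE 0.45, adjusted p = 0.000452, edgeR).

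LTB4R, the receptor for leukotriene B4, lies on chromosome 10 at 20853775 to 20855801. It was the least counted of the 9 genes, with 6 to 123 counts per control library and 4 to 84 per heat stress library in Takara. Its level was 0.891 to 6.40 CPM in the control (median 2.52) and 0.435 to 6.02 CPM after heat stress (median 2.14). No heat stress library lay above the highest control, 4 of 13 lay below the lowest control, and the other libraries overlapped. The log2 fold change was -0.43 (SE 0.36, 95% interval -1.14 to 0.28, adjusted p = 0.382, edgeR), and its sign differed between the sample number ranges.

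The growth factor receptors showed smaller differences. CSF3R, the receptor for granulocyte colony-stimulating factor, lies on chromosome 3 at 109410219 to 109429225. In Takara it ranged from 312 to 1977 CPM in the control (median 1093) and from 465 to 1629 CPM after heat stress (median 1320.2). No heat stress library lay above the highest control, and the heat stress libraries were closer together than the controls, with a coefficient of variation of 27.3% against 49.9%. Lexogen did not show this, with 59.3% in heat stress and 59.4% in the control. The log2 fold change was 0.51 (SE 0.27, 95% interval -0.03 to 1.04, adjusted p = 0.164, edgeR).

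CSF2RA encodes the ligand-binding chain of the receptor for granulocyte-macrophage colony-stimulating factor, and CSF2RB the signalling chain that this receptor shares with those for IL3 and IL5. CSF2RA is placed on chromosome Y at 641983 to 709113, in the region paired with chromosome X, so that the assignment of its reads is uncertain. CSF2RA ranged from 10.3 to 49.98 CPM in Takara control libraries (median 27.5) and from 25.2 to 73.6 CPM after heat stress (median 43.9). The groups overlapped, with 5 heat stress libraries above all controls and 5 control libraries below all heat stress libraries. CSF2RA rose by 0.96 on the log2 scale (SE 0.24, adjusted p = 0.00409, edgeR). For CSF2RB, on chromosome 5 at 75349225 to 75372726, the range was 76.9 to 159.5 CPM in the control (median 127) and 86.1 to 229 CPM after heat stress (median 149.3). Most of its libraries overlapped, and 6 of 13 heat stress libraries exceeded the highest control. CSF2RB rose by 0.74 on the log2 scale (SE 0.20, adjusted p = 0.0086, edgeR). With total counts in place of TMM scaling its log2 fold change was 0.38 (adjusted p = 0.0549, edgeR).

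TREM1, an immunoglobulin-like receptor that amplifies the responses of neutrophils and monocytes, lies on chromosome 23 at 15140492 to 15155609. It ranged from 39.9 to 278 CPM in Takara control libraries (median 161) and from 123 to 979.7 CPM after heat stress (median 607). As for C5AR1, 10 of 13 heat stress libraries were above every control, and 3 control libraries were below every heat stress library. TREM1 rose by 2.14 on the log2 scale (SE 0.36, adjusted p = 0.000371, edgeR).

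Lexogen libraries of the same blood gave 5 of 8 tested receptors as higher after heat stress and 0 as lower, where 5.55% of 11108 genes were called, 5.09% as higher and 0.459% as lower. LTB4R did not pass the filter on low counts in this kit, and without the filter its log2 fold change was -0.40 (SE 1.07, adjusted p = 0.866, edgeR). The 5 were CXCR2, CSF2RA, C5AR1, TREM1 and PTAFR. The median log2 fold change of the 8 receptors was 1.32, beside -0.08 for all genes tested. The unadjusted p of edgeR was under 0.05 for all 8, beside 1877 of the 11108 genes. With the animal as a block, which uses the pairing of the samples by calf, only PTAFR kept its call in Lexogen (adjusted p = 0.0295, edgeR), beside 0.568% of all genes. The same 7 receptors were called in Takara, beside 25% of all genes. The block fits held only the 12 calves of each kit with both times. In Lexogen the block fit thus also left out the heat stress library of animal 15 and the control library of animal 7. Without the library of animal 15 after heat stress, 3 of 8 were called, beside 4.05% of all genes. With the Lexogen library of animal 20 counted as heat stress, 6 of 8 were called, beside 7.32%. With it as a control, edgeR called 0 of 8, beside 0.0178%. Here 6 had an unadjusted p under 0.05, beside 1303 of 11222 genes.

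C5AR1 ranged from 102 to 381 CPM in Lexogen control libraries (median 149.7) and from 77.7 to 2512 CPM after heat stress (median 374). In this kit 6 of 13 heat stress libraries lay above all controls and formed a group between 1142 and 2512 CPM, and the others lay within or near the control range. The log2 fold change was 2.48 (SE 0.44, adjusted p = 0.00104), and 1.603 with the block (adjusted p = 0.0956, both edgeR). PTAFR went from 20.4 to 110.2 CPM in the control (median 51.6) to 43.6 to 634 CPM (median 133). Of its heat stress libraries, 8 lay above all controls. Its log2 fold change was 2.15 (SE 0.39, adjusted p = 0.00116, edgeR).

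CXCR2 in Lexogen ranged from 213 to 1001 CPM in the control (median 377) and from 189 to 2428 CPM after heat stress (median 855). Only 5 heat stress libraries exceeded the highest control, that of animal 14. CXCR2 had a log2 fold change of 1.35 (SE 0.31, adjusted p = 0.00642), and 1.30 with the block (adjusted p = 0.0786, both edgeR). CXCR1 ranged from 16.3 to 145 CPM in the control (median 64.7) and from 16.6 to 287.7 CPM after heat stress (median 125). Its groups overlapped over nearly the whole control range. CXCR1 was not called, with a log2 fold change of 1.11 (SE 0.39, 95% interval 0.35 to 1.88, adjusted p = 0.0934, edgeR).

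TREM1 was low in Lexogen, between 0 and 22.1 CPM in the control (median 6.28), with 1 control library at 0, and between 0.981 and 115.8 CPM after heat stress (median 27.7). A count of 0 allows up to 3 counts, or 0.664 CPM in the shallowest Lexogen library. Of the heat stress libraries, 8 of 13 lay above all controls. The log2 fold change was 2.12 (SE 0.59, adjusted p = 0.0278), and 2.08 with the block (adjusted p = 0.24, both edgeR).

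The growth factor receptors in Lexogen were as follows. CSF2RA ranged from 0.491 to 15.3 CPM in the control (median 6.16) and from 6.73 to 34.8 CPM after heat stress (median 16.7), so that every heat stress library was above the median control. Its log2 fold change was 1.29 (SE 0.39, adjusted p = 0.0443). It was 1.37 with the block (adjusted p = 0.186) and 1.23 with total counts as library sizes (adjusted p = 0.0657, all edgeR). CSF2RB ranged from 41.9 to 232 CPM in the control (median 80.9) and from 62.2 to 322 CPM after heat stress (median 141), with 1 high control library, that of animal 14, and CSF3R from 74.3 to 434 CPM (median 146) and from 96.5 to 731 CPM (median 292). Neither gene passed the threshold. The log2 fold changes were 0.85 for CSF2RB (SE 0.27, adjusted p = 0.0577) and 0.80 for CSF3R (SE 0.32, adjusted p = 0.166, both edgeR). LTB4R was at 0 in 3 control and 5 heat stress libraries of Lexogen and reached 4.57 and 6.03 CPM in the highest libraries of the groups.

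**Figure D2:**
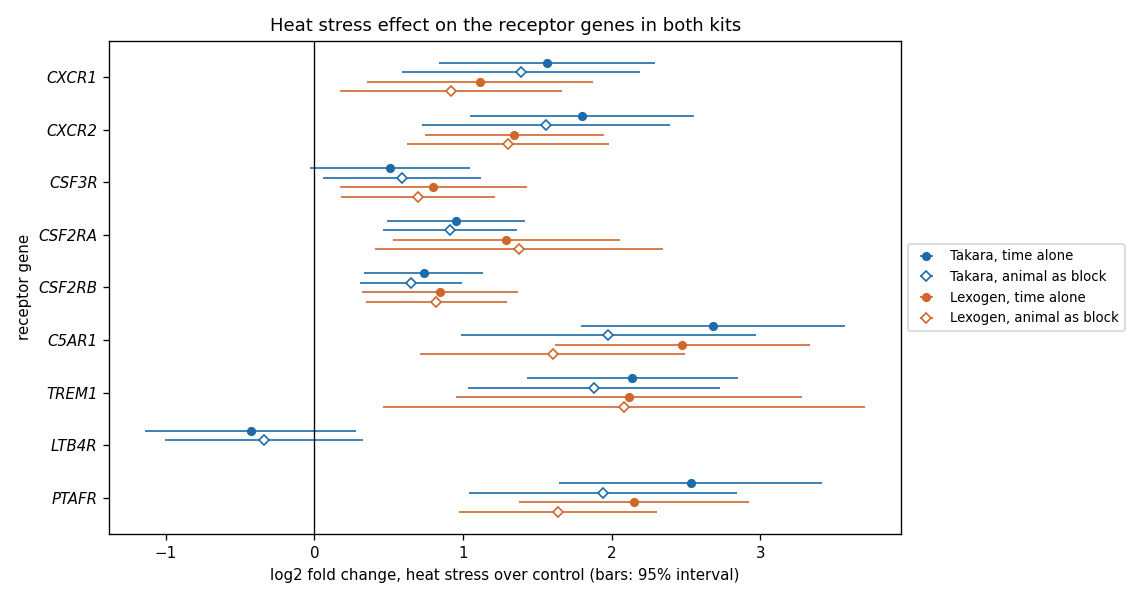
Log2 fold changes of the receptor genes, heat stress over thermoneutral control (horizontal axis), in Takara (blue) and Lexogen (orange), from edgeR fits of time alone (filled circles) and with the animal as a block (open diamonds). The block fits hold only calves with both times. Bars are 95% intervals; C5AR1, PTAFR and TREM1 have the largest fold changes in both kits, LTB4R has no Lexogen value, and the interval of CSF3R from time alone in Takara reaches below 0.

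The difference between the kits in the heat stress response was tested directly, as the interaction of kit and time with the RNA sample as a block. Of the 9 receptors, 0 were called, beside 0% of the 13354 genes tested. Of these genes, 526 had an unadjusted p under 0.05 in this edgeR test. With an unadjusted p under 0.05 there was 1 receptor, CSF2RA, whose log2 fold change was 0.82 larger in Lexogen (95% interval 0.12 to 1.52, adjusted p = 1, edgeR). The smallest intervals were those of C5AR1, for which the difference of Lexogen minus Takara was 0.09 (95% interval -0.14 to 0.32), and PTAFR, at 0.08 (95% interval -0.25 to 0.41). TREM1 and LTB4R had the widest intervals, from -0.47 to 1.63 and from -2.62 to 2.12. Among the 10 calves with pairs in both kits, the change had the same sign in 9 calves for CSF3R, TREM1 and PTAFR and in 6 for CSF2RA, with the other genes between.

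Levels differed between the kits in the same RNA. In the 12 thermoneutral RNA samples with libraries of both kits, 6 of the 9 receptors were called, 5 as lower and 1 as higher in Lexogen, where 64.2% of 12386 genes were called, 36.6% as lower and 27.6% as higher. TREM1 differed most, with a median of 159 CPM in Takara and 7.24 CPM in Lexogen. It was lower in Lexogen in 12 of 12 RNA samples, by a log2 difference of -4.14 (SE 0.44, adjusted p = 3.16e-07, edgeR). CSF3R had medians of 968 and 156 CPM (log2 difference -1.92, SE 0.12) and CSF2RA of 27.8 and 6.15 CPM (-1.90, SE 0.28). CXCR1 and C5AR1 were lower in Lexogen by smaller amounts, with log2 differences of -0.98 (SE 0.17) and -0.47 (SE 0.09). Against these, the paralog CXCR2 was higher in Lexogen, with medians of 358 and 441 CPM and a log2 difference of 0.60 (SE 0.14, adjusted p = 0.00108, edgeR). With total counts as library sizes, which called 65.2% of genes, the CXCR2 difference was 0.21 and was not called, and CSF2RB, LTB4R and PTAFR were called as lower in Lexogen. TMM scaling moved the median log2 difference of all genes by 0.38 against total counts. In the TMM fit the 3 uncalled genes had log2 differences of -0.00 for CSF2RB (95% interval -0.27 to 0.26), -0.04 for PTAFR (-0.30 to 0.22) and -1.57 for LTB4R (-3.13 to -0.01). The interval of LTB4R is approximate and ends below 0, although its unadjusted p was 0.0644 (edgeR).

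**Figure D3:**
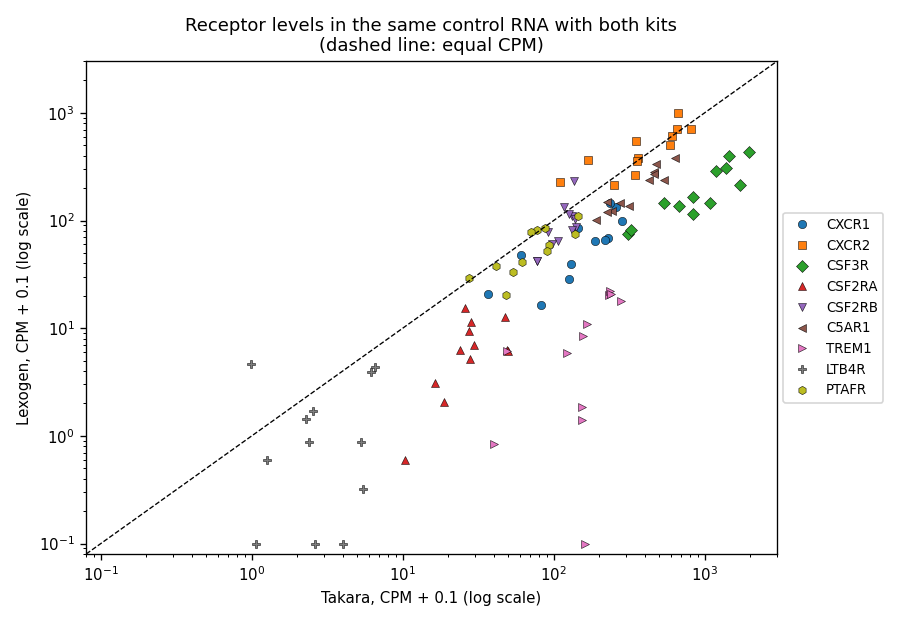
CPM of the 9 receptor genes in Takara (horizontal axis) and Lexogen (vertical axis) libraries of the same 12 thermoneutral control RNA samples, both on log scales after adding 0.1 CPM so that zeros can be drawn. Each point is 1 RNA sample and each symbol 1 gene; on the dashed line the kits are equal, and TREM1 lies farthest below it while CXCR2 lies near or above it.

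The calves differed in how far their receptors changed. In Takara, the pair differences of log2(CPM + 1) were positive for 8 or more of the 9 receptors in 6 of 12 calves. Animal 36 had the largest change for 8 of them, for example from 227 to 3649.8 CPM for C5AR1 and from 39.9 to 921 CPM for TREM1. In animal 18 C5AR1 went from 244 to 2825 CPM. Animals 3 and 41 stood apart in the other direction. Animal 41 had 0 of 9 receptors higher after heat stress and animal 3 had 2, CSF2RA and CSF2RB, and C5AR1 went from 313.4 to 149.4 CPM in animal 3 and from 462 to 429.8 CPM in animal 41. In the remaining 10 calves C5AR1, TREM1 and PTAFR were each higher after heat stress, although C5AR1 changed only from 633 to 643 CPM in animal 14 and was higher in 9 of the 12 calves after TMM scaling.

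In Lexogen the largest median pair difference over the 9 receptors was again that of animal 36, at 2.73 beside 3.32 in Takara. The lowest medians were those of animals 14 and 41, at -0.23 and -0.21. Animal 3 had 5 of 9 receptors higher, animal 14 had 4, and animal 41 had 4. For C5AR1 the Lexogen values went from 118.9 to 2512 CPM in animal 36, from 137 to 77.7 CPM in animal 3 and from 272 to 282.9 CPM in animal 41.

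**Figure D4:**
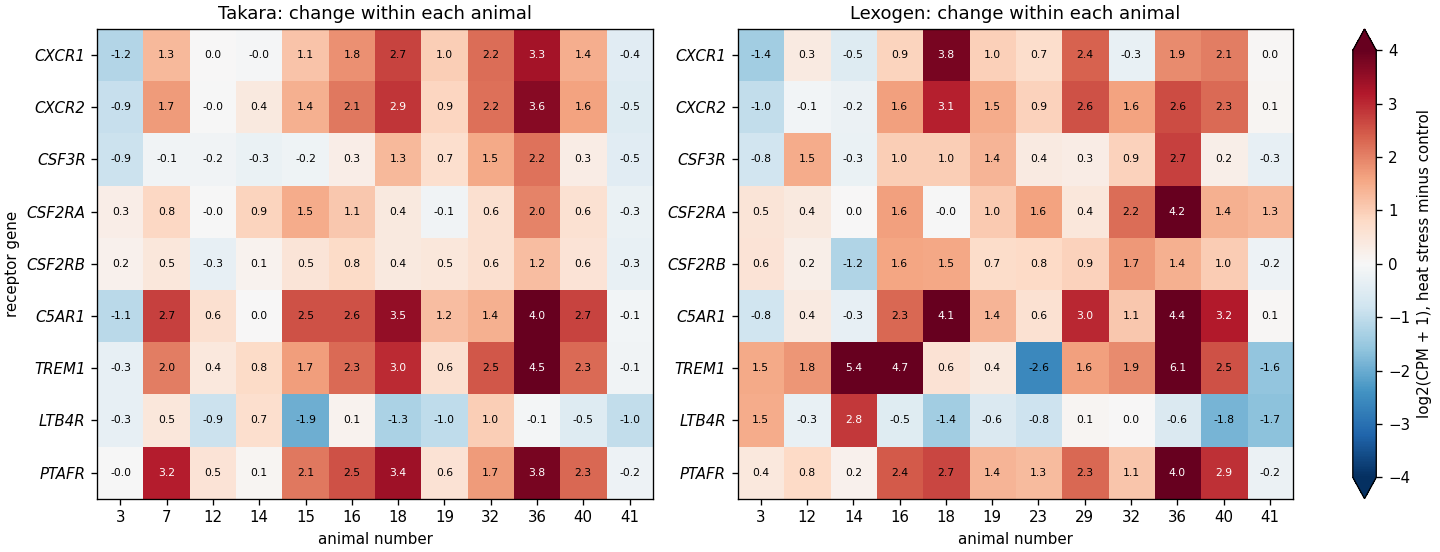
Change of each receptor gene (rows) within each calf (columns) as the difference of log2(CPM + 1), heat stress minus thermoneutral control, in Takara (left) and Lexogen (right); red is higher after heat stress, blue is lower, and colours end at 4 and -4. In Takara the columns of animals 3 and 41 are mostly blue, with 2 and 0 of 9 receptors higher, and the row of LTB4R does not follow the other rows.

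Across the 12 Takara pairs, 8 receptors varied together. The Pearson correlation of each one's change with the mean change of the others was between 0.80 for CSF2RA and 0.99 for CXCR2, and for LTB4R it was 0.17. These are descriptions over 12 calves, and the values of a pair share its libraries and their scaling. All pair differences of this paragraph were taken after TMM scaling, and those by calf above without it unless stated. Over 7833 genes with a mean of at least 10 CPM, those whose pair differences most resembled the mean of the receptors were VNN2 (r = 0.996), ANXA1 (0.994), CCR1 (0.994), C5AR2 (0.993) and FCAR (0.991), over the same 12 pairs. FCAR is an immunoglobulin A receptor of myeloid cells and VNN2 a surface pantetheinase of leukocytes.

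The sample numbers fall into 2 ranges with a wide gap between them, a lower one of 8 calves and a higher one of 7 calves. In Takara, 5 receptors were called in the lower range (CXCR1, CXCR2, C5AR1, TREM1 and PTAFR) and 4 in the higher range (CSF2RA, C5AR1, TREM1 and PTAFR), beside 20.6% and 7.35% of all genes. The log2 fold changes of C5AR1 were 2.71 and 2.65 and those of PTAFR 2.40 and 2.68. In Lexogen, 5 were called in the lower range, beside 3.49% of all genes. In the higher range edgeR called 0, beside 0% of all genes. There 5 receptors had an unadjusted p under 0.05, beside 1275 of 11459 genes. The interaction of range and time called 0 of 9 receptors in either kit, beside 2.27% of 13767 genes in Takara (0.508% with a larger and 1.76% with a smaller fold change in the higher range) and 0.0222% of 13484 genes in Lexogen (0.0148% and 0.00742%). An unadjusted p under 0.05 was held by 1 of 9 receptors in each kit, beside 2236 of 13767 genes in Takara and 1060 of 13484 in Lexogen. In Takara this was LTB4R (unadjusted p = 0.0174, adjusted p = 0.198, edgeR). Its log2 fold change was -1.14 (SE 0.48) in the lower and 0.62 (SE 0.42) in the higher range. In Lexogen the unadjusted p of CXCR1 was 0.0348, with log2 fold changes of 1.84 (SE 0.43) and 0.17 (SE 0.58).

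The ligands of these receptors and the enzymes that make their lipid ligands were mostly low in blood, and 9 of 14 could be tested in Takara. Of these 4 rose and 0 fell, with a median log2 fold change of 1.06. ALOX5 and its activating protein ALOX5AP, which begin leukotriene synthesis, rose by 2.59 (SE 0.75) and 2.27 (SE 0.38). ANXA1, a ligand of formyl peptide receptors that limits neutrophil recruitment, rose by 2.13 (SE 0.42), and LPCAT2, which makes platelet-activating factor, by 1.24 (SE 0.35). CXCL8 itself had a log2 fold change of 1.06 (SE 0.46, adjusted p = 0.0833, edgeR) and was not called. In Lexogen, 2 of 8 rose, ALOX5AP by 1.96 (SE 0.48) and ANXA1 by 1.65 (SE 0.38).

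Among related receptors, 4 of 10 rose in Takara and 4 of 9 in Lexogen, and 0 fell in either. The 4 called genes were shared by the kits. GPR84, a receptor for medium-chain fatty acids, rose by 2.54 (SE 0.49) in Takara and 2.27 (SE 0.68) in Lexogen. The chemokine receptor CCR1 rose by 2.19 (SE 0.42) and 1.64 (SE 0.39), and C5AR2, the second C5a receptor and the neighbour of C5AR1 on chromosome 18, by 2.14 (SE 0.40) and 1.92 (SE 0.35). CXCR4, the receptor for CXCL12 that retains neutrophils in bone marrow, rose by 1.64 (SE 0.29) and 1.40 (SE 0.27). The median of the list was 0.31 in Takara and 0.60 in Lexogen, since the others, such as C3AR1 and CSF1R, lay near 0 or had wide errors.

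Of 16 genes that transmit the receptors' signals, 11 rose and 0 fell in Takara (median 0.70), and 5 of 14 tested rose in Lexogen (median 0.58). STAT3, the factor activated by CSF3R, rose by 1.91 (SE 0.35) and 1.499 (SE 0.33). TYROBP, the adaptor of TREM1, rose by 1.22 (SE 0.28) and 1.10 (SE 0.33), and the SRC family kinase FGR by 1.11 (SE 0.27) and 0.98 (SE 0.28). STAT5A and STAT5B, which GM-CSF activates, were not called in Takara, with log2 fold changes of 0.12 (SE 0.33) and 0.37 (SE 0.26). Of 14 genes that dampen receptor signals, 9 rose and 0 fell in Takara (median 0.72), and 3 rose in Lexogen (median 0.55). RGS2, which turns off G proteins, rose by 1.76 (SE 0.47) in Takara, the phosphatase PTPN6 by 1.16 (SE 0.20) and SOCS3, the inhibitor of CSF3R signalling, by 1.04 (SE 0.30). With total counts as library sizes in Takara, which called 27.6% of genes, 6 of these 14 rose, and 1 related receptor fell.

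**Figure D5:**
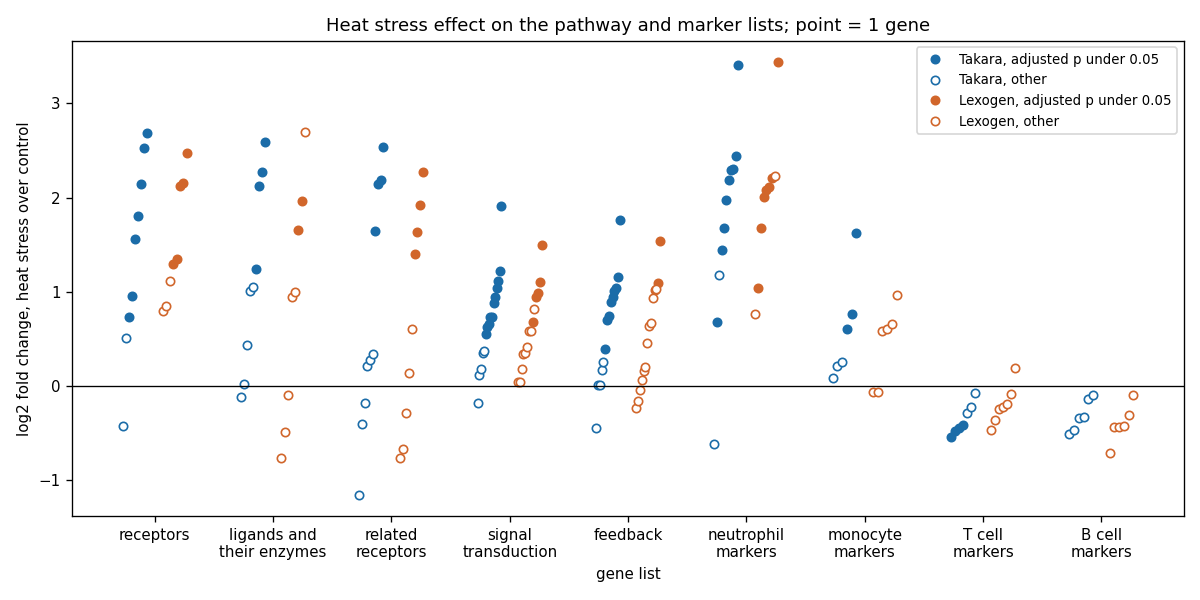
Log2 fold changes, heat stress over thermoneutral control (vertical axis), of the receptor genes, their pathway lists and 4 of the blood cell marker lists (horizontal axis) in Takara (blue) and Lexogen (orange). Each point is 1 gene and filled points have an edgeR adjusted p under 0.05; filled points among receptors, pathway genes and neutrophil markers all lie above 0, and those among T cell markers, all Takara, lie below 0.

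Neutrophil markers moved with the receptors. In Takara 9 of 11 tested markers rose and 0 fell (median log2 fold change 1.98), led by ALPL at 3.41 (SE 0.58), MMP9 at 2.44 (SE 0.45) and S100A8 at 2.30 (SE 0.43). Their summed level, over all 13 genes of the list, was 3694 to 17472 CPM in control libraries and 3930 to 72602 CPM after heat stress, with medians of 11015 and 40029.5 CPM. Most of this sum came from S100A12, S100A8 and S100A9, with medians of 9575, 2387 and 2053 CPM over the compared Takara libraries. The next highest marker, PADI4, had a median of 92.4 CPM, so that the sum mainly follows these S100 genes. In Lexogen 7 of 9 rose, and the sum was 777 to 6240 CPM in the control and 1609 to 28754 CPM after heat stress. MMP8 was at 0 in every Lexogen library and every Takara control library. The sum was lower after heat stress in animals 3 and 41 of the 12 Takara pairs and in animals 3, 23 and 41 of the 12 Lexogen pairs. The part of neutrophil number in the receptor changes was not tested. In whole blood RNA, more neutrophils and more receptor RNA per neutrophil cannot be told apart.

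Each list of other blood cells had fewer called markers than the neutrophil list, and those called in Takara went in both directions. In Takara, 4 of 7 T cell markers fell, with log2 fold changes of -0.55 for CD3E (SE 0.19), -0.48 for CD3D (SE 0.17), -0.45 for CD3G (SE 0.16) and -0.42 for CD8B (SE 0.15), and 0 of 6 B cell markers were called. The summed T cell level was 1017 to 2081 CPM in the control and 429 to 1687 CPM after heat stress. Of 6 monocyte markers 3 rose in Takara, CD163 by 1.62 (SE 0.40), CD68 by 0.76 (SE 0.29) and VCAN by 0.60 (SE 0.23), while CD14 and CSF1R had log2 fold changes of 0.26 (SE 0.24) and 0.21 (SE 0.28). With total counts as library sizes 1 of the 6 rose. The natural killer cell receptor NCR1 rose by 1.20 (SE 0.24) in Takara and 1.55 (SE 0.45) in Lexogen, alone among 4 natural killer and cytotoxic markers. In Takara 0 of 3 eosinophil, 0 of 2 platelet and 0 of 2 erythroid markers were called by edgeR, and in Lexogen 0 of 6 monocyte, 0 of 7 T cell and 0 of 6 B cell markers. Summed CPM was nevertheless lower after heat stress in most Takara pairs, since the erythroid and platelet sums were each higher in only 2 of 12 calves, the eosinophil and T cell sums in 3 and the B cell sum in 4. The erythroid median went from 1729 CPM in the control to 929 CPM after heat stress. The part of these cells in the receptor changes was not tested.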

How the data were processed

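Whole blood 3′ mRNA-Seq libraries of 15 calves were compared in both kits, with groups taken from the labels. The deposited values are raw gene counts, for which the authors used Trimmomatic 0.39 for trimming and STAR 2.7.10b for alignment to the ARS-UCD2.0 assembly, counting uniquely mapped reads. The unstranded column was used. Of 32637 symbols, 30271 matched the RefSeq table of ARS-UCD2.0, which gave positions. Genes were filtered with filterByExpr (minimum count 10), scaled by TMM and tested with edgeR 4.0.16 (quasi-likelihood test of time alone, R 4.3.3), with Benjamini-Hochberg adjustment over all genes. Intervals are 95% from the standard error with a normal quantile, so that they can be narrower than the test of the same gene allows. Reads carry no molecular identifiers, so floors of 3 counts cover counting error only.

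The receptors and lists were chosen with earlier results of these data known. From each list, up to 3 genes with the largest positive and 3 with the largest negative changes among Takara calls were named, with others named after their values were seen. The animal numbers of the labels pair the samples by calf. Centred levels correlated above 0.1 in 10 of 12 Takara pairs (median r 0.24) and in 3 of 12 Lexogen pairs (median r 0.005). The Lexogen levels thus showed little of the pairing that the block there uses. The block fits held only calves with both times in the kit. Alternatives were sense-strand counts, no filter, DESeq2 1.42.0, its size factors, total counts, the animal as a block, both assignments of animal 20, the sample number range, and leaving out the deepest library. The edgeR fits of time, of kit level and of the interactions, with the filter and TMM, were run on simulated counts with known changes. The alternatives were not, and the simulated libraries had no pairing by calf.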

Additional observations from a re-analysis of the deposited data

Results flagged for a closer look

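The libraries of animal 20 entered no comparison of the times, and receptors stood above every control library of the kit in them, 7 of 9 in each kit. The label gives heat stress. The study's sample table, read in the order of the animal numbers, gives control for this calf and also differs from the labels for animals 7, 15, 23 and 29, and it matches the labels for all of them once its columns are exchanged. In the Takara library C5AR1 reached 2675 CPM beside a highest control of 633, CXCR2 2132 CPM beside 810.2 and TREM1 1226 CPM beside 278. CXCR1 was at 749 CPM, PTAFR at 684 CPM, CSF2RB at 254 CPM and CSF2RA at 154 CPM. For CXCR1, CSF2RA, CSF2RB and TREM1 this was also above all 13 heat stress libraries of Takara. In the Lexogen library C5AR1 reached 2218 CPM beside a highest control of 381, CXCR2 2171 CPM beside 1001 and PTAFR 606 CPM beside 110.2. CSF3R was at 606 CPM, CXCR1 at 228 CPM, TREM1 at 118.4 CPM and CSF2RA at 18.8 CPM. Of these, TREM1 was above all 13 heat stress libraries of Lexogen.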

How the results depend on the processing

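Over the alternatives run, 85 of 99 Takara fold changes kept their direction and side of the threshold, 13 lost it and 1 reversed, and of 96 Lexogen values 68 kept both, 20 lost and 8 gained significance. The number of receptors called in Takara was 7, and 0 with animal 20 as thermoneutral control (5 with an unadjusted p under 0.05). It was 4 with only the higher sample number range (beside 7.35% of all genes), 5 with only the lower (20.6%) and 6 with total counts (27.6%). In Lexogen it was 5, and 0 with animal 20 as control (6 with an unadjusted p under 0.05) and 0 with only the higher sample number range (5). It was 3 without the heat stress library of animal 15 and 1 with the animal as a block. Without a filter 7 were called in Lexogen (beside 15.2% of all genes), and 6 with DESeq2 size factors (6.02%). There were 6 with animal 20 as heat stress (7.32%), 4 with total counts (4.4%) and 4 with the number range as covariate (4.51%). The block kept 7 calls in Takara. DESeq2 called 7 in each kit, beside 16.8% of all genes in Takara and 4.66% in Lexogen. Called genes over the whole Takara table were 3646, and 931 with the higher number range and 0 with animal 20 as control (3804 with an unadjusted p under 0.05). In Lexogen they were 616, and 3273 without a filter, 1006 with DESeq2, 402 with the lower number range, 0 with the higher (1275 with an unadjusted p under 0.05), 2 with animal 20 as control and 63 with the block. Total counts shifted the median Takara log2 fold change from -0.05 to -0.27 and gave 1303 higher and 2185 lower genes, beside 2325 and 1321. Without a filter, 1701 Lexogen genes were higher and 1572 lower, beside 565 and 51, and DESeq2 gave 816 and 190. The kit difference had 3419 higher and 4539 lower genes, and 2450 and 5631 with total counts. The interaction of range and time called 312 Takara genes, 146 without a filter and 158 with total counts, and 3 Lexogen genes and 0 without a filter (2342 with an unadjusted p under 0.05). The log2 fold change of LTB4R in Takara reversed to 0.62 in the higher number range. Sense-strand counts reversed the interaction of kit and time of C5AR1 (-0.020) and PTAFR (-0.030) and the kit difference of CSF2RB (0.062) and PTAFR (0.017). Total counts reversed the interaction of range and time in Takara of CSF3R (0.081) and C5AR1 (0.027). None of these reversed values was called, and the cause was not tested. Low counts limit LTB4R in both kits and TREM1 and CSF2RA in Lexogen, where libraries held as few as 0, 0 and 4 counts.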
